A study of Mus musculus with 17 samples.

Results

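The genes described here are 8 genes of the red blood cell lineage: the adult alpha globins Hba-a1 and Hba-a2, the adult beta globins Hbb-bs and Hbb-bt, the embryonic globins Hba-x and Hbb-y, the erythroid heme enzyme Alas2 and the red cell anion exchanger Slc4a1. They were chosen by name, as the rows of the count table whose Ensembl identifier carries one of these symbols in the GENCODE mouse annotation, and they are 8 of the 55359 genes in the table. RNA was sequenced from organs of male pups at an age of 1 day, on a 129/SvEv background, in 17 libraries. The testes gave 2 libraries of WT pups born from WT mothers, 3 of Ocn+/- pups and 3 of Ocn-/- pups, and the forebrain gave 3 libraries of each of these genotypes. All mutant pups were born from Ocn-/- mothers, so the genotype of the pup, the genotype of the mother and the litter cannot be told apart when mutants are compared with WT. The Ocn mutation was made by gene targeting and is carried in every cell. The brain samples are labelled hippocampus and are described by the study as forebrain including the hippocampus. The labels do not say whether testes and forebrains came from the same pups, and no perfusion of the organs is mentioned. The question addressed here is how much red cell RNA each organ held and whether any embryonic globin RNA was left at birth.

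Hemoglobin is a tetramer of alpha-like and beta-like chains, each holding a heme group. In the mouse embryo the yolk sac makes red cells that carry the embryonic chains, and the fetal liver then makes red cells with adult chains, a replacement known as globin switching. Maturing red cells lose their nucleus but keep globin mRNA for some days as reticulocytes, which are abundant in the blood of newborn mice.

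The alpha-like genes lie together on chromosome 11 of GRCm39, all on the plus strand, Hba-x at chr11:32226400-32228116, Hba-a1 at chr11:32233186-32234504 and Hba-a2 at chr11:32246168-32247320. The beta-like genes lie on the minus strand of chromosome 7, Hbb-bt at chr7:103461727-103465047, Hbb-bs at chr7:103475730-103482989 and Hbb-y at chr7:103500956-103502423. Alas2 lies on chromosome X at chrX:149330371-149353634 and Slc4a1 on chromosome 11 at chr11:102239650-102257029. Each globin gene has 3 exons. The adult genes are near copies of each other, which bears on how reads were divided between them. A stretch of 60 coding bases of exon 3 is shown for each family, from coding base 351 to 410 in the alpha-like genes and from 382 to 441 in the beta-like genes, counted from the start codon. Capitals mark the bases that differ from the other adult gene, or, in an embryonic gene, from Hba-a1 or Hbb-bs. The alpha-like stretches are at chr11:32234313-32234372, chr11:32247130-32247189 and chr11:32227930-32227989.
Hba-a1: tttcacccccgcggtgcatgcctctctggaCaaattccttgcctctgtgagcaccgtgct
Hba-a2: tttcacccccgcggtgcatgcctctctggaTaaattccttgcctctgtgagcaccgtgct
Hba-x: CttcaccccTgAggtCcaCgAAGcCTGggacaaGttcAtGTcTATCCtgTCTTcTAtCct
The beta-like stretches are at chr7:103475875-103475934, chr7:103461866-103461925 and chr7:103501084-103501143, each read on the minus strand.
Hbb-bs: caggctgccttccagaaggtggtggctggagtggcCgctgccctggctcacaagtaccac
Hbb-bt: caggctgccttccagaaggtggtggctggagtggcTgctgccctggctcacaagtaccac
Hbb-y: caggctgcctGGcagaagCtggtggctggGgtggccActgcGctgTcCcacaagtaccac

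In the reference, the coding sequences of Hba-a1 and Hba-a2 differed at 1 of 426 bases, and those of Hbb-bs and Hbb-bt at 1 of 441 bases. The embryonic genes stood well apart, with 163 differing bases between Hba-x and Hba-a1 and 113 between Hbb-y and Hbb-bs. Of all stretches of 50 bases in the Ensembl canonical transcript, 82.7% in Hba-a1 and 91.6% in Hba-a2 were also found in the other alpha gene. For Hbb-bs and Hbb-bt these shares were 62.3% and 58.2%, while none was found in another gene for Hba-x, Hbb-y, Alas2 and Slc4a1. A read from a shared stretch can be assigned only by estimate, so the values of single adult globin genes are less certain than the sums of both copies. The reference is C57BL/6J and the mice are 129/SvEv, and mouse strains are known to carry different pairs of adult beta globin genes. The names Hbb-bs and Hbb-bt are those of the reference.

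The libraries held 7302401 to 8289015 counts in testes and 6518151 to 14621584 counts in forebrain. WT forebrain replicate 3 stood apart, with the lowest total and 8.50% of its counts in the 18S ribosomal RNA gene Rn18s-rs5, which held 0.261% to 0.805% in the other forebrains. The changes of the tested genes named below against WT forebrain are given with and without it. The osteocalcin genes, which are made in bone, gave no check of genotype, since Bglap held at most 5 counts in any library and Bglap2 held 0. All 8 testis markers were called higher in testes and all 8 forebrain markers higher in forebrain, among the former the germ cell genes Ddx4 and Dazl.

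The adult globins made up nearly all of the counts of the 8 genes in either organ. Of all counts of a library, the 8 genes held 0.0873% to 0.659% in testes and 0.0363% to 0.0623% in forebrain. Levels were compared between genes as CPM, counts relative to the library size as corrected by TMM over all libraries, per kilobase of the Ensembl canonical transcript. In testes the means over 8 libraries were 1374 ± 1021 (SD) for Hbb-bs, 1045 ± 779 for Hba-a1, 897 ± 665 for Hba-a2, 87.1 ± 58.2 for Hbb-bt, 11.7 ± 7.97 for Alas2 and 0.368 ± 0.282 for Slc4a1. In forebrain they were, in the same order and over 9 libraries, 366 ± 66.0, 231 ± 64.8, 205 ± 65.1, 24.6 ± 7.32, 3.23 ± 0.591 and 0.214 ± 0.257. Hbb-bs exceeded Hba-a1 in all 17 libraries, by 1.10 to 1.54 times in testes and 1.35 to 2.08 times in forebrain, although the means differed by less than 1 SD in testes. Hba-a1 and Hba-a2 were within 1 SD of each other in both organs, and in 1 of 9 forebrains Hba-a2 was the higher. Hbb-bt stood below Hba-a2 by 5.97 to 12.7 times in single libraries, and Alas2 below Hbb-bt by 5.32 to 9.46 times. Slc4a1, the anion exchanger of the red cell membrane, rested on 2 to 34 counts in testes and 2 to 20 in forebrain.

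Embryonic globin RNA was at or below the limit of detection. Hbb-y, the embryonic beta-like chain, held 2 expected counts in Ocn+/- testes replicates 2 and 3 and 0 in the other 15 libraries. Hba-x, the embryonic alpha-like chain, held 2 in Ocn-/- testes replicate 2, 1 in WT forebrain replicate 1 and 0 in the other 15. Neither passed the filter on low counts, so 6 of the 8 genes were tested. The largest share that Hbb-y took of beta-like globin counts was 0.0682%, and the largest share that Hba-x took of alpha-like globin counts was 0.0350%. In libraries at 0, a count of 0 allows about 3 counts, which limits the share of Hbb-y to between 0.0135% and 0.0671% in 6 testes libraries and between 0.0825% and 0.176% in the 9 forebrains. For Hba-x the same limits lay between 0.00992% and 0.0786% in 7 testes libraries and between 0.0712% and 0.130% in 8 forebrains. In the libraries with a count, the upper bound of the exact (Clopper-Pearson) 95% interval was 0.246% and 0.151% for Hbb-y in Ocn+/- testes replicates 2 and 3. For Hba-x it was 0.126% in Ocn-/- testes replicate 2 and 0.124% in WT forebrain replicate 1. These limits and intervals cover counting error only. The other embryonic and minor globins also held few counts: Hbb-bh0 and Hbb-bh2 were at 0 throughout, Hbb-bh1 reached 1 count, and the theta globins Hbq1a and Hbq1b reached 4.14 and 9.33 expected counts. None of these 5 genes passed the filter. With Hbb-y and Hba-x each at 0 in 15 of 17 libraries, the 18 exact permutation tests of these shares between groups say nothing of a difference, and they are counted among the 45 tests of shares over which p-values are adjusted below.

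Testes held more RNA of the adult globins, Alas2 and Slc4a1 than forebrain. All 6 tested genes were called higher in testes in a joint fit of both organs with edgeR's quasi-likelihood test, where 84.4% of the 17800 genes tested were called in either direction and 44.5% as higher in testes. Calls rest on p-values adjusted over all genes tested by the Benjamini-Hochberg method, with a threshold of 0.05. Summed over the adult globins, the level was 2325 ± 1718 CPM (SD, n = 8) in testes and 563 ± 131 CPM (SD, n = 9) in forebrain. The lowest testes library, Ocn+/- replicate 2, was at 759 CPM and the highest forebrain, WT replicate 3, at 795 CPM, and these were the only libraries that overlapped. Hba-a1 was higher by 2.20 on the log2 scale (SE 0.31, adjusted p = 2.89e-05) and Hba-a2 by 2.17 (SE 0.32, adjusted p = 4.21e-05). Hbb-bs was higher by 1.90 (SE 0.29, adjusted p = 6.32e-05) and Hbb-bt by 1.85 (SE 0.31, adjusted p = 0.000142). Alas2, which makes the first committed step of heme synthesis in red cells, was higher by 1.84 (SE 0.21, adjusted p = 4.11e-07). Slc4a1 was higher by 1.12 (SE 0.43, adjusted p = 0.0187), a call lost without WT testes replicate 1 (adjusted p = 0.0570), Ocn-/- testes replicate 1 (0.0842) or Ocn+/- testes replicate 3 (0.0553). The median over the 6 genes was 1.88, against 0.09 over all genes tested. The share of all counts in the 8 genes was also higher in testes, 0.263% against 0.0510% (two-sided exact permutation p = 8.23e-05, the smallest that 8 against 9 libraries can give, adjusted p = 0.00370 over 45 tests of shares). Other lists of erythroid genes went both ways between the organs. Of 9 other red cell proteins tested, 2 were called higher and 6 lower in testes. For 12 erythroid transcription factors and receptors these numbers were 4 and 6, for 13 membrane and surface genes 5 and 6, and for 23 heme and iron genes 15 and 6. In bulk RNA, fewer red cells and less RNA per red cell cannot be told apart, and which cells the RNA came from was not tested.

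**Figure D1:**
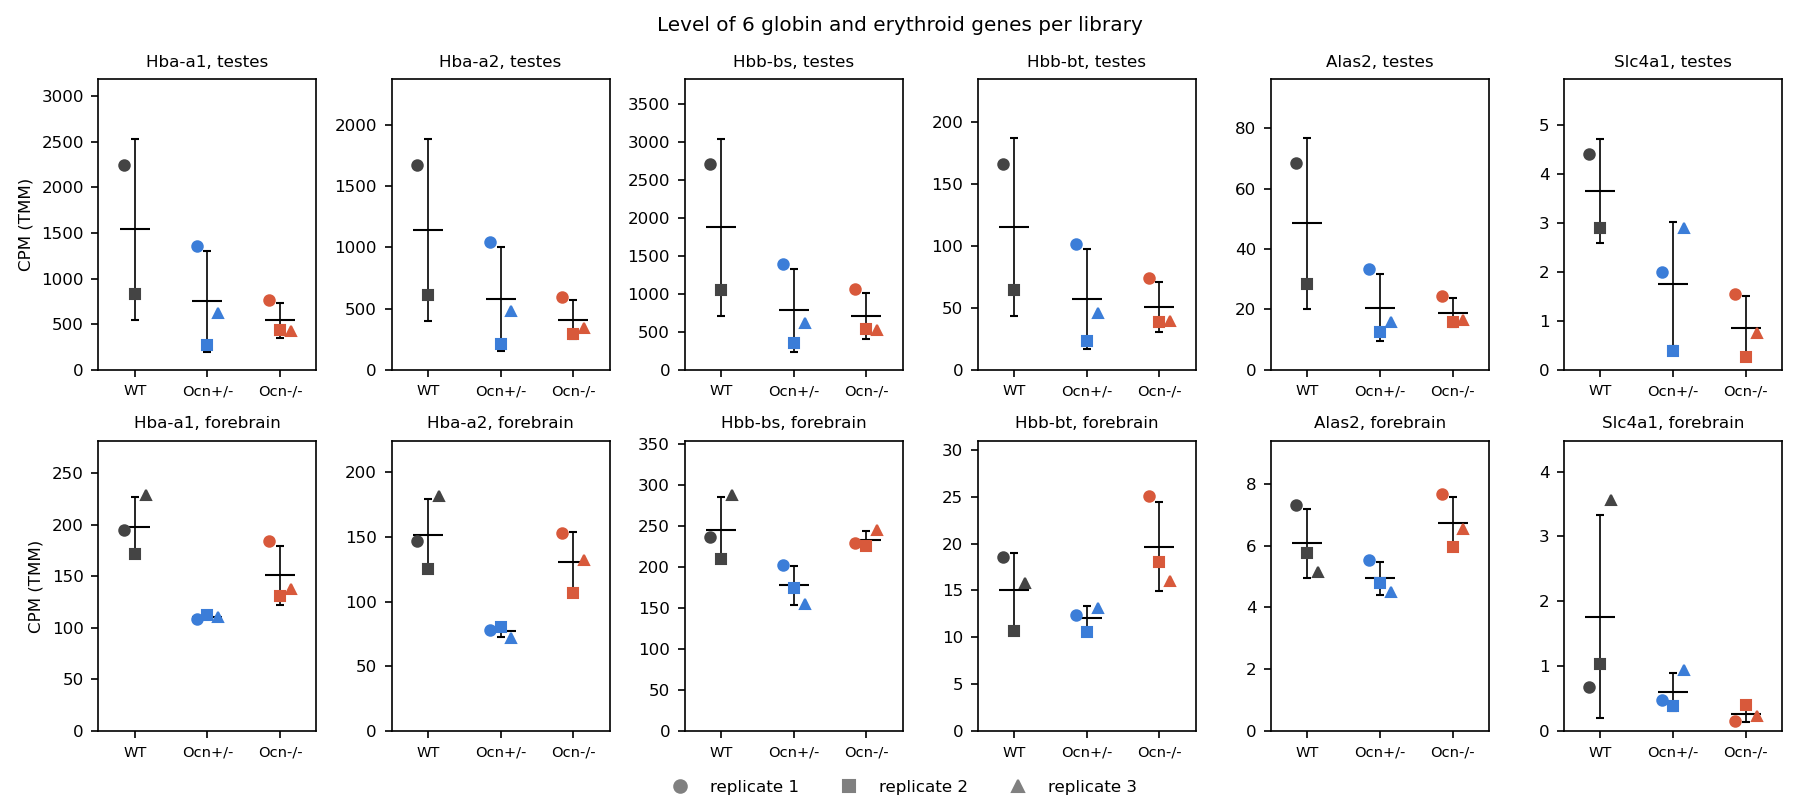
Level of the 6 tested genes in each library, as CPM with TMM scaling within the organ, by genotype, in testes (top) and forebrain (bottom). Points are libraries with a shape for each replicate number, and bars are the mean and SD of a genotype. WT testes replicate 1 is the highest testes library for every gene, and the 3 Ocn+/- forebrains lie below the WT forebrains for Hba-a1, Hba-a2 and Hbb-bs.

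In testes the mean level of each of the 6 tested genes was lower in both mutant genotypes than in WT, and none of these differences was called. Hba-a1 was at 2245 and 834 CPM in the WT testes, at 1363, 274 and 620 in Ocn+/- and at 764, 436 and 428 in Ocn-/-. WT replicate 1 was the highest, and the other WT library lay within the range of the Ocn+/- libraries. Hbb-bs was at 2708 and 1055 CPM in WT, at 1397, 347 and 612 in Ocn+/- and at 1060, 532 and 526 in Ocn-/-. The highest Ocn-/- library thus reached the lower of the WT libraries. Alas2 was at 68.5 and 28.5 CPM in WT, at 33.3, 12.6 and 15.8 in Ocn+/- and at 24.4, 15.7 and 16.6 in Ocn-/-. For Alas2 the Ocn-/- libraries all lay below WT, while the highest Ocn+/- library lay between the WT libraries. Hba-a2 ranged from 615 to 1672 CPM in WT, 207 to 1045 in Ocn+/- and 292 to 592 in Ocn-/-. Hbb-bt ranged from 64.6 to 166 CPM in WT, 23.2 to 102 in Ocn+/- and 38.9 to 74.1 in Ocn-/-. Slc4a1 was at 4.41 and 2.90 CPM in WT, at 1.99, 0.379 and 2.89 in Ocn+/- and at 1.54, 0.255 and 0.758 in Ocn-/-. Only for Slc4a1 did both mutant genotypes lie wholly below WT, by little in Ocn+/-. Of the 6 tested genes, 1 lay wholly below WT in Ocn+/-, as did 23.3% of all genes tested, and 4 in Ocn-/- (Hba-a1, Hba-a2, Alas2 and Slc4a1), as did 22.1% of all genes tested.

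None of the 6 tested genes was called in Ocn+/- against WT testes, where 8.25% of the 16361 genes tested were called, and none in Ocn-/- against WT testes, where 5.64% were. At an unadjusted p under 0.05 the numbers were 0 in Ocn+/- and 2 in Ocn-/-, both lower, where 12.7% and 11.8% of all genes tested were lower at this p. DESeq2 called none in either, but gave Slc4a1 no adjusted p in either. The log2 fold changes in Ocn+/- testes ran from -0.99 for Hba-a2 (SE 0.80, adjusted p = 0.505) to -1.26 for Hbb-bs (SE 0.75, adjusted p = 0.363), all 6 below 0, with edgeR. In Ocn-/- testes they ran from -1.18 for Hbb-bt (SE 0.75, adjusted p = 0.418) to -2.07 for Slc4a1 (SE 0.70, adjusted p = 0.0899), again all below 0, with Alas2 at -1.36 (SE 0.54, adjusted p = 0.204). The medians over the 6 genes were -1.05 and -1.45, against 0.01 and -0.01 over all genes tested. Both comparisons share the WT testes, and the values rest strongly on WT replicate 1: without it, Hba-a1 was at -0.15 in Ocn+/- and at -0.61 in Ocn-/-, Hba-a2 at -0.09 and -0.58, Hbb-bs at -0.42 and -0.57, and Hbb-bt at -0.18 and -0.34. Alas2 was then at -0.47 and -0.58 and Slc4a1 at -0.73 and -1.73. Slc4a1 passed the threshold in Ocn-/- testes without Ocn+/- replicate 2 (-2.05, adjusted p = 0.0450). Between Ocn-/- and Ocn+/- testes none of the 6 was called by edgeR, where 0% of the genes tested were called, and none had an unadjusted p under 0.05, which 11.5% of all genes tested had. DESeq2 called none there either, but gave Slc4a1 and Alas2 no adjusted p.

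In the testes, markers of neutrophils and of vessels were called lower in both mutant genotypes. Of 8 macrophage markers tested, 2 were called higher in Ocn+/-, and the median log2 fold change of the 8 was 0.16 in Ocn+/- and -0.41 in Ocn-/-. Of all genes tested, 8.25% were called in Ocn+/- testes and 5.64% in Ocn-/- testes, in either direction. The summed level of 10 neutrophil markers was 80.4 to 88.9 CPM in WT, 29.6 to 46.9 in Ocn+/- and 15.4 to 25.2 in Ocn-/-, with Elane, the neutrophil elastase gene, at 0 in WT and Ocn+/-. Of the 7 neutrophil markers tested, 3 were called lower in Ocn+/-, the largest change being that of Ltf (-3.21, SE 0.57, adjusted p = 0.00429), which encodes lactoferrin. In Ocn-/- 4 were called lower, with Ngp, a granule protein gene, at -3.59 (SE 0.53, adjusted p = 0.00149). The summed level of 8 endothelial markers was 619 to 629 CPM in WT, 403 to 471 in Ocn+/- and 365 to 399 in Ocn-/-, and 3 and 6 of the 8 were called lower, among them Pecam1, an adhesion molecule of the vessel wall, at -0.93 (SE 0.15, adjusted p = 0.00245) and -1.13 (SE 0.15, adjusted p = 0.000512). Platelet markers summed to 13.7 to 14.4 CPM in WT, 11.8 to 13.9 in Ocn+/- and 8.54 to 11.5 in Ocn-/-, and none of the 3 tested was called in either. Macrophage markers summed to 120 to 126 CPM in WT, 126 to 164 in Ocn+/- and 66.2 to 124 in Ocn-/-, and Cx3cr1 and Cd68 were called higher in Ocn+/-, at 1.54 (SE 0.30, adjusted p = 0.00785) and 1.32 (SE 0.33, adjusted p = 0.0231), while no macrophage marker was called in Ocn-/-. Without WT replicate 1 the calls of Ltf (adjusted p = 0.0860), Cx3cr1 (0.0868) and Cd68 (0.184) were lost, while those of Ngp in Ocn-/- (0.0320) and of Pecam1 (0.0267 and 0.00565) were not. Without WT replicate 2 that of Pecam1 in Ocn+/- was lost (0.0576). The 8 testis markers summed to 1631 to 1778 CPM in WT, 864 to 1399 in Ocn+/- and 893 to 1311 in Ocn-/-. Among them Lhcgr, the luteinizing hormone receptor of Leydig cells, was called lower at -1.23 (SE 0.18, adjusted p = 0.00132) and -1.19 (SE 0.18, adjusted p = 0.00149), in Ocn-/- not without WT replicate 2 (0.0615). Sox9, a Sertoli cell transcription factor, was called higher at 0.92 (SE 0.15, adjusted p = 0.00310) and 1.10 (SE 0.15, adjusted p = 0.000777), in Ocn+/- not without WT replicate 1 (0.0573). The part of all these cells in the globin values was not tested.

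In forebrain, Ocn+/- pups had less RNA of the adult alpha globins and of Hbb-bs than WT pups. Of the 6 genes tested, 3 were called, all lower, where 3.89% of the 16076 genes tested were called in either direction and 2.68% as lower. Hba-a1 was at 195, 171 and 228 CPM in WT and at 108, 112 and 111 CPM in Ocn+/-. The groups did not overlap, as in 13.9% of all genes tested with Ocn+/- below WT, and the 3 Ocn+/- libraries were close together. Hba-a1 fell by 0.84 on the log2 scale (SE 0.12, adjusted p = 0.00187), to 0.559 of the WT level. Hba-a2 was at 147, 125 and 181 CPM in WT and at 78.1, 80.6 and 71.8 CPM in Ocn+/-. It fell by 0.97 (SE 0.14, adjusted p = 0.00240), to 0.510 of the WT level, again without overlap. Both alpha globins were called under every alternative run, including without any single library, Hba-a1 with an adjusted p of at most 0.0173 and Hba-a2 of at most 0.0242. Without WT replicate 3 their log2 fold changes were -0.73 (adjusted p = 0.0123) and -0.82 (adjusted p = 0.00759).

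Hbb-bs was at 237, 209 and 288 CPM in WT forebrains and at 203, 175 and 155 CPM in Ocn+/-. The highest Ocn+/- library lay just below the lowest WT library. Hbb-bs fell by 0.46 on the log2 scale (SE 0.11, adjusted p = 0.0301). This call was lost without WT replicate 1 (adjusted p = 0.0541) or 3 (-0.33, 0.133), without Ocn+/- replicate 2 (0.0982) or 3 (0.105), with library size alone (0.0588) and in a fit of only these 2 genotypes (0.0507), while the sign stayed the same in each. Hbb-bt, at 18.5, 10.7 and 15.8 CPM in WT and 12.4, 10.5 and 13.1 CPM in Ocn+/-, was not called (-0.33, SE 0.20, adjusted p = 0.376), and was at -0.30 without WT replicate 3. Alas2, at 7.32, 5.76 and 5.16 CPM in WT and 5.55, 4.80 and 4.50 CPM in Ocn+/-, was not called either (-0.32, SE 0.21, adjusted p = 0.421), and was at -0.41 without WT replicate 3. Slc4a1, at 0.686, 1.04 and 3.56 CPM in WT and 0.473, 0.387 and 0.941 CPM in Ocn+/-, had a log2 fold change of -1.37 (SE 0.62, adjusted p = 0.214), and of -0.47 without WT replicate 3. The median over the 6 genes was -0.65, against 0.01 over all genes tested.

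In Ocn-/- forebrains no globin was called against WT, and the call was Slc4a1. It was 1 of 6, called lower, where 4.85% of all genes tested were called in either direction and 3.05% as lower. Slc4a1 held 9, 9 and 20 counts in the WT forebrains and 2, 6 and 3 in Ocn-/-, without overlap in CPM, as in 13.9% of all genes tested with Ocn-/- below WT. It fell by 2.52 on the log2 scale (SE 0.69, adjusted p = 0.0411). The call was lost without WT replicate 3 (-1.62, adjusted p = 0.286) or 2 (0.0576), without any one of the Ocn-/- replicates (0.12, 0.0800 and 0.0774) and without Ocn+/- replicate 2 (0.0525). Hba-a1, at 184, 130 and 138 CPM in Ocn-/-, had a log2 fold change of -0.39 (SE 0.12, adjusted p = 0.0760). It passed the threshold with DESeq2 (adjusted p = 0.0293), without a filter (0.00149) and without Ocn-/- replicate 1 (-0.56, 0.00664), and was at -0.28 (adjusted p = 0.292) without WT replicate 3. DESeq2 gave Slc4a1 no adjusted p, so the 1 gene it called was Hba-a1. Hba-a2, at 153, 106 and 132 CPM in Ocn-/-, was at -0.21 (SE 0.14, adjusted p = 0.402), and at -0.062 without WT replicate 3. Hbb-bs, at 229, 225 and 245 CPM, was at -0.07 (SE 0.11, adjusted p = 0.773), and its sign turned without WT replicate 3 (0.066). Hbb-bt, at 25.1, 18.0 and 16.0 CPM, was at 0.38 (SE 0.20, adjusted p = 0.278), and Alas2, at 7.67, 5.96 and 6.55 CPM, at 0.12 (SE 0.21, adjusted p = 0.793). Without WT replicate 3 these were 0.41 and 0.030. The median over the 6 genes was -0.14, and 4 of the 6 lay below 0.

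Between Ocn-/- and Ocn+/- forebrains none of the 6 genes was called, where 1 of 16076 genes, 0.00622%, was. All 4 adult globins and Alas2 had unadjusted p under 0.05 and were higher in Ocn-/-, Hba-a2 the most (0.76, SE 0.14, adjusted p = 0.702). For these 5 genes the lowest Ocn-/- library lay above the highest Ocn+/- library. Of all genes tested, 1.53% were higher at an unadjusted p under 0.05, 3.65% had groups apart in this direction, and 0.977% had both. The call depended on the processing: Hba-a2 passed with DESeq2 (adjusted p = 0.000188), with library size alone (0.0100) and without Ocn-/- replicate 2 (0.0179), and all 4 adult globins passed without a filter on low counts.

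**Figure D2:**
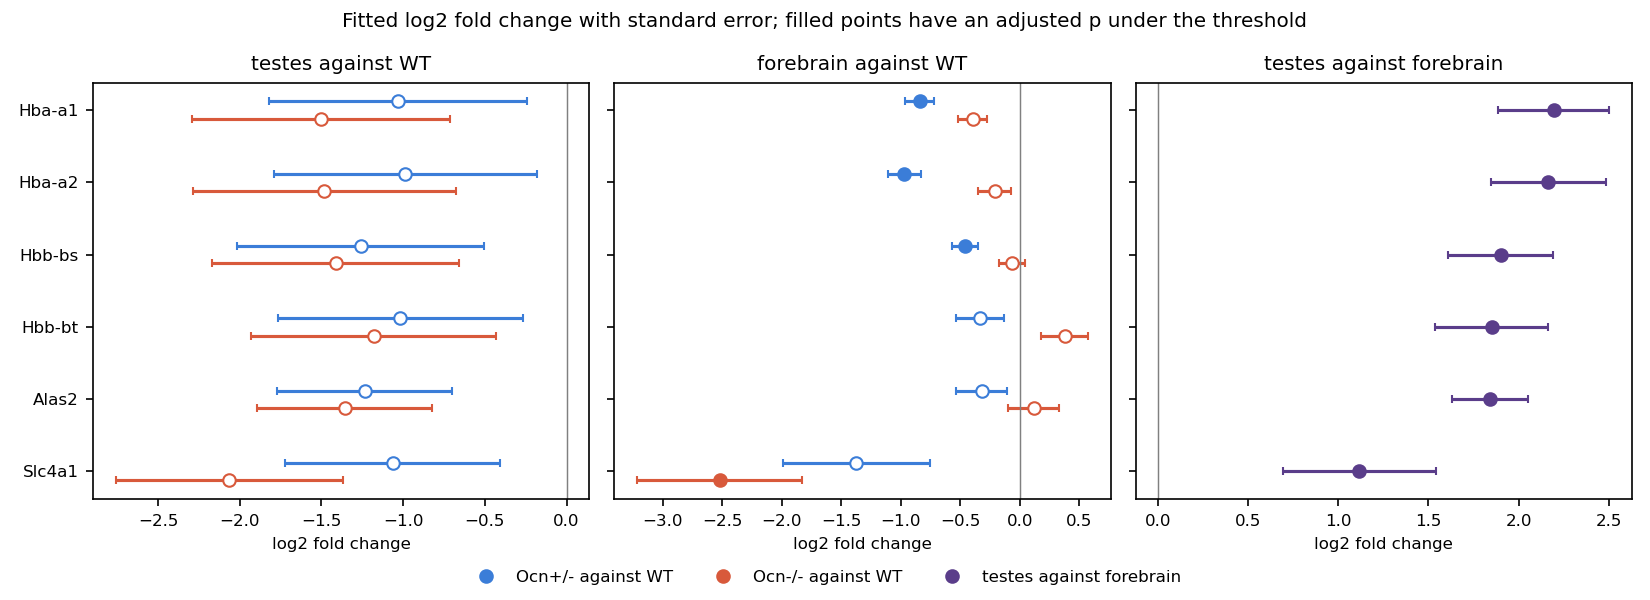
Fitted log2 fold change of the 6 tested genes with its standard error, for the mutants against WT in testes (left) and forebrain (middle) and for testes against forebrain (right). Filled points have an adjusted p under 0.05: Hba-a1, Hba-a2 and Hbb-bs in Ocn+/- forebrain, Slc4a1 in Ocn-/- forebrain and all 6 genes between the organs.

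None of the 6 genes was called for a difference between the organs of the change in the mutants, taken as Ocn+/- and Ocn-/- averaged, against WT, in testes less the same in forebrain, where 2.96% of genes tested were called. The differences were -0.66 for Hba-a1 (SE 0.66, adjusted p = 0.652), -0.65 for Hba-a2 (SE 0.68, adjusted p = 0.667), -1.08 for Hbb-bs (SE 0.63, adjusted p = 0.391) and -1.13 for Hbb-bt (SE 0.69, adjusted p = 0.415), from edgeR. Alas2, at -1.20 (SE 0.46, adjusted p = 0.175), was the 1 gene with an unadjusted p under 0.05, DESeq2 called none, and Alas2 passed without Ocn+/- testes replicate 1 (-1.47, adjusted p = 0.0302). Slc4a1 was at 0.39 (SE 0.85, adjusted p = 0.864). These values rest on WT testes replicate 1: without it, the sign turned for Hba-a1 and Hba-a2 (0.22 and 0.24), and Hbb-bs was at -0.25, Hbb-bt at -0.30, Alas2 at -0.44 and Slc4a1 at 0.74. Without WT forebrain replicate 3, Slc4a1 was at -0.52.

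The ratio of beta-like to alpha-like globin counts was higher in the mutant forebrains than in WT, a difference that adjustment could not decide. This ratio does not depend on depth or on the division of reads between near copies. It was 0.746, 0.743 and 0.742 in the WT forebrains, 1.15, 0.959 and 0.921 in Ocn+/- and 0.756, 1.03 and 0.967 in Ocn-/-. The WT values were nearly equal, and all 6 mutant libraries lay above them, Ocn-/- replicate 1 by little. The mean over the 6 mutant libraries was 0.964, with 1.01 in Ocn+/- and 0.917 in Ocn-/-, and that of WT was 0.744. The 6 mutant libraries together differed from WT by 0.220 (two-sided exact permutation p = 0.0238, the smallest that 6 against 3 libraries can give). Over the 45 tests of shares the adjusted p was 0.357. Most of those tests cannot reach a p as small as 0.0238, so this test could not have passed adjustment. Without WT replicate 1, 2 or 3 the difference was 0.222, 0.220 or 0.219, with a p of 0.0714, the smallest then allowed. Each mutant genotype alone against WT gave an exact permutation p of 0.1, the smallest that 3 against 3 can give. In testes the ratio was 0.734 and 0.773 in WT, 0.623, 0.768 and 0.599 in Ocn+/- and 0.836, 0.785 and 0.734 in Ocn-/-, and the genotypes lay on opposite sides of WT, Ocn+/- by -0.0902 and Ocn-/- by 0.0317. The 6 mutant testes together differed from WT by -0.0292 (exact permutation p = 0.786). The ratio was lower in testes than in forebrain, 0.731 against 0.890 (exact permutation p = 0.0165, adjusted p = 0.357), and the WT forebrains lay within the range of the testes.

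**Figure D3:**
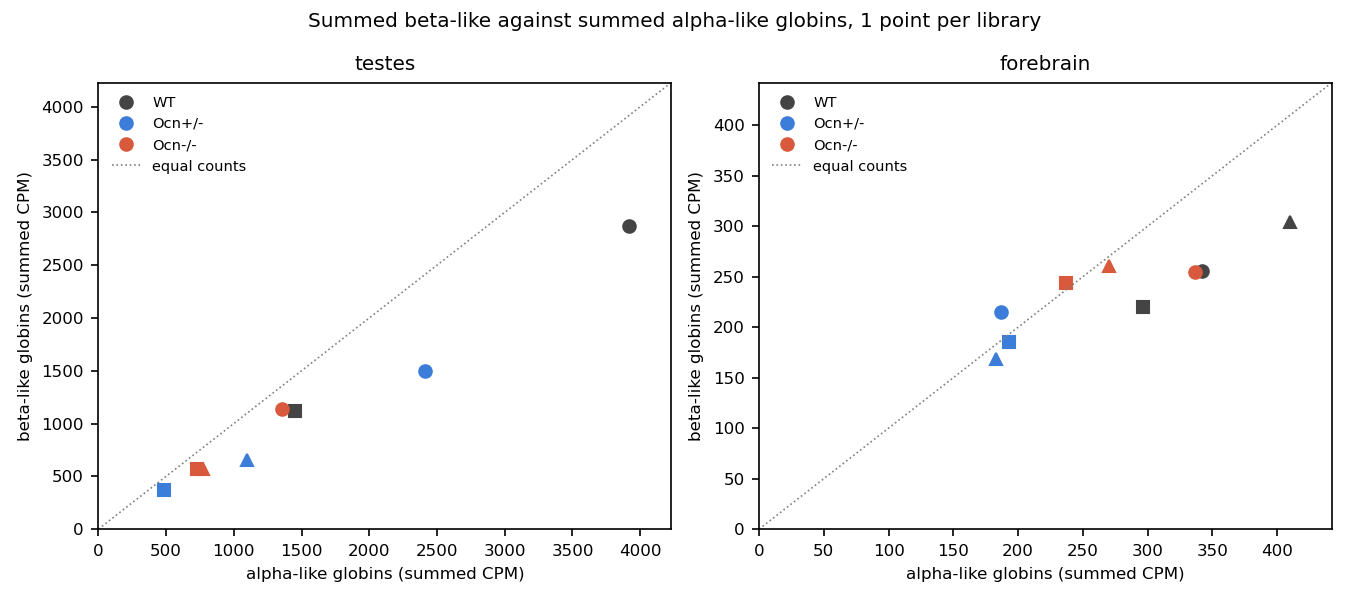
Summed level of the beta-like globins against that of the alpha-like globins, in CPM with TMM scaling within the organ, 1 point per library, in testes (left) and forebrain (right). Colours are genotypes, shapes replicate numbers as circle 1, square 2 and triangle 3, and the dotted line marks equal counts. The WT forebrains lie on a line with ratios of 0.742 to 0.746, and the Ocn+/- forebrains lie nearer to the line of equal counts, at 0.921 to 1.15.

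Hbb-bt took a small part of the adult beta globin counts in every library. Its share was 5.77% in both WT testes, 6.30% to 6.97% in Ocn+/- testes and 6.53% to 6.94% in Ocn-/- testes. All 6 mutant testes lay above both WT testes, with an exact permutation p of 0.0714, the smallest that 6 against 2 can give (adjusted p = 0.563). In forebrain the share was 4.86% to 7.26% in WT, 5.71% to 7.78% in Ocn+/- and 6.11% to 9.88% in Ocn-/-, with overlap between all genotypes. It did not differ between the organs, with means of 6.49% and 6.66% (exact permutation p = 0.796). Hba-a2 took 40.1% to 44.5% of the adult alpha globin counts in testes and 39.3% to 48.9% in forebrain. When near copies were summed before the fit, both families were called lower in the Ocn+/- forebrain, with log2 fold changes of -0.90 for Hba-a1 and Hba-a2 together (adjusted p = 0.00268) and -0.45 for Hbb-bs and Hbb-bt together (adjusted p = 0.0276).

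Across libraries the levels of the genes were closely correlated in testes and less so in forebrain; whether the organs differ in this was not tested. Pearson's r between log2 CPM values was computed for 15 pairs of the 6 genes in each organ, 30 relations in all, with exact permutation tests and adjustment over all 30. In testes (n = 8) r ran from 0.749 to 0.997 with a median of 0.964, and all 15 pairs passed, 14 of them also by Spearman's rho (Hbb-bs with Slc4a1 did not, adjusted p = 0.0724). Without the 2 libraries farthest from the median, the testes pairs with Slc4a1 fell to between 0.558 (Hbb-bt) and 0.713 (Hba-a2). The other testes pairs then stayed at 0.904 (Hba-a2 with Alas2) or above. In forebrain (n = 9) r ran from -0.489 to 0.948 with a median of 0.535, and 4 pairs passed. Hba-a1 and Hba-a2 had r = 0.948 in forebrain (exact permutation p = 0.000234, adjusted 0.000639) and Spearman's rho 0.950 (p = 0.000353, adjusted 0.00198), and 0.922 without the 2 libraries farthest from the median. Hba-a2 and Hbb-bs had r = 0.896 (exact permutation p = 0.000488, adjusted 0.00122) and rho 0.900 (p = 0.00203, adjusted 0.00608), and 0.896 without the farthest 2. Hba-a1 and Hbb-bs had r = 0.781 (exact permutation p = 0.0101, adjusted 0.0215) and rho 0.817 (p = 0.0108, adjusted 0.0231), and 0.610 without the farthest 2. Hbb-bt and Alas2 had r = 0.757 (exact permutation p = 0.0192, adjusted 0.0354) and rho 0.783 (p = 0.0172, adjusted 0.0344), and 0.517 without the farthest 2. In testes Hba-a1 and Alas2 had r = 0.962 (exact permutation p = 0.000149, adjusted 0.000558) and rho 0.929 (p = 0.00223, adjusted 0.00609), and 0.918 without WT replicate 1 and Ocn+/- replicate 2, the farthest 2. These relations pool the genotypes, the groups are too small to give r within each, and near copies share reads. Alas2 held 8.53 to 14.8 counts per 1000 adult globin counts in testes and 7.17 to 13.9 in forebrain, lowest in WT forebrain replicate 3.

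Other genes of the erythroid programme differed widely in level, and which cells their RNA came from was not tested. The erythroid transcription factor Klf1 held 0 to 4 counts in testes and 0 to 7 in forebrain. Gata1, another erythroid factor that Sertoli cells also express, held 5 to 28 counts in testes and 0 to 2 in forebrain. None of 12 erythroid transcription factors and receptors tested in testes, or of 10 in forebrain, was called in either mutant genotype. Of 23 genes of heme synthesis and iron supply, 1 was called higher and 3 lower in Ocn+/- testes, and 2 higher and 1 lower in Ocn-/- testes. Of all genes tested, 8.25% and 5.64% were called in these comparisons, in either direction. The lower ones included Alas1, the heme enzyme of non-erythroid cells, at -1.38 (SE 0.25, adjusted p = 0.0169) and -1.41 (SE 0.25, adjusted p = 0.0172). The higher ones included Alad, the next enzyme of the pathway, at 0.81 (SE 0.18, adjusted p = 0.0151) and 0.66 (SE 0.18, adjusted p = 0.0429). Tfrc, the transferrin receptor, and Slc25a37, the mitochondrial iron importer, fell in Ocn+/- testes by 0.51 (SE 0.15, adjusted p = 0.0413) and 0.57 (SE 0.16, adjusted p = 0.0381). Without WT testes replicate 1, and also without replicate 2, the calls of all 4 were lost, with adjusted p from 0.0826 for Alas1 in Ocn+/- to 0.364 for Alad in Ocn-/-. The log2 fold change of Alas1 then stayed between -1.25 and -1.50 in both genotypes. For the difference between organs of the mutant change Alas1 was called at -1.77 (SE 0.23, adjusted p = 0.000261), also without any one of the 17 libraries (adjusted p of at most 0.00444). In forebrain none of the 23 was called in either genotype. Their medians were 0.20 and 0.13 in Ocn+/- and Ocn-/- testes and 0.09 and 0.20 in forebrain.

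Of the other genes of the red cell membrane and surface, 10 were tested in forebrain and 13 in testes. In both organs and both mutant genotypes Slc2a1, the glucose transporter of red cells that the vessels of the brain also carry, was called lower, at -1.24 in Ocn+/- forebrain (SE 0.11, adjusted p = 3.03e-06) and -1.14 in Ocn-/- forebrain (SE 0.11, adjusted p = 1.44e-05). In testes the log2 fold changes of Slc2a1 were -0.80 (SE 0.15, adjusted p = 0.00641) and -0.92 (SE 0.15, adjusted p = 0.00257). Aqp1, a water channel of red cells and vessels, was called lower in Ocn+/- testes (-0.77, SE 0.22, adjusted p = 0.0396), in Ocn-/- testes (-0.92, SE 0.22, adjusted p = 0.0227) and in Ocn-/- forebrain (-0.85, SE 0.19, adjusted p = 0.0136). The calls of Slc2a1 held without WT forebrain replicate 3 (-1.17 and -1.07, adjusted p = 5.44e-05 and 0.000247) and without WT testes replicate 1 (0.0182 and 0.00611), while those of Aqp1 were lost in forebrain (-0.84, 0.0541) and in testes (0.177 and 0.0984). Without WT testes replicate 2 the calls of Slc2a1 in testes were lost (0.178 and 0.146). Sptb, a spectrin gene, was called higher in both mutant forebrains, at 0.42 (SE 0.09, adjusted p = 0.0126) and 0.40 (SE 0.09, adjusted p = 0.0153). Without WT forebrain replicate 3 the call of Sptb held in Ocn+/- (0.40, adjusted p = 0.0497) and was lost in Ocn-/- (0.38, 0.0622). Of the other red cell proteins, Bnip3l, a gene of mitochondrial clearance, was the call in Ocn+/- testes (-0.46, SE 0.12, adjusted p = 0.0258), and no other was called in a mutant against WT in either organ. Among the globins of other tissues Cygb, cytoglobin, was called higher in Ocn+/- testes (0.65, SE 0.15, adjusted p = 0.0184). Without WT testes replicate 1 the calls of Bnip3l (adjusted p = 0.175) and Cygb (0.171) were lost.

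Neutrophil markers were scarce in forebrain, while platelet, macrophage and endothelial markers were measured there. The summed level of the neutrophil markers was 1.25 to 3.80 CPM in WT, 0.470 to 1.15 in Ocn+/- and 0.469 to 1.58 in Ocn-/-, with Elane at 0 in every forebrain and none of the 10 tested. The 8 endothelial markers summed to 171 to 203 CPM in WT, 141 to 184 in Ocn+/- and 137 to 198 in Ocn-/-. Pecam1 and the vascular growth factor receptor Kdr fell in Ocn+/- by 0.60 (SE 0.16, adjusted p = 0.0469) and 0.48 (SE 0.12, adjusted p = 0.0371). In Ocn-/- forebrains Kdr fell by 0.49 (SE 0.12, adjusted p = 0.0279) and was the 1 of 8 called, where 4.85% of all genes tested were called in either direction. Without WT replicate 3 these calls were lost, for Pecam1 (-0.51, adjusted p = 0.197) and for Kdr in Ocn+/- (-0.42, 0.163) and Ocn-/- (-0.43, 0.136). Platelet markers summed to 21.0 to 30.5 CPM in WT, 30.8 to 35.7 in Ocn+/- and 26.9 to 37.1 in Ocn-/-, and macrophage markers to 101 CPM in each WT forebrain, 94.5 to 118 in Ocn+/- and 88.5 to 113 in Ocn-/-. The microglial receptor Cx3cr1 was the 1 macrophage marker called, higher in both mutant forebrains (0.84, SE 0.17, adjusted p = 0.0113, and 0.91, SE 0.17, adjusted p = 0.00582), also without WT replicate 3 (0.64 and 0.72, adjusted p = 0.0412 and 0.0237). The part of these cells in the globin values was not tested.

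The genes most like the adult globins in pattern came from outside the lists of erythroid genes. Among 14584 genes tested in both organs, likeness was the lower of the organs' Pearson's r with the summed adult globin level, on the log2 CPM scale, over 8 testes and 9 forebrains. The 10 highest were Rab11fip1 at 0.807, Gm13568 at 0.805, Zfp236, Exd2, Invs, Foxo3, Myadm, E430024I08Rik, Nubpl and, at 0.724, Icam2, an adhesion molecule of endothelial cells. None of the 10 is on any list of erythroid, blood or vessel genes used here. Within 1 organ alone, 0.432% of these genes in testes and 1.11% in forebrain reached the likeness of Rab11fip1.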

How the data were processed

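RNA of testes and forebrain from male pups at 1 day of age was sequenced by the authors with an NEBNext Ultra RNA kit. Per the submitters' processing notes the reads were trimmed with Trim Galore 0.6.6, aligned with STAR 2.7.8a and counted with RSEM 1.3.3 on GRCm39. The deposited table holds the expected counts that RSEM gave the authors, not normalized, with 1 row for each of 55359 genes, and 9625 rows hold a value that is not whole. RSEM divides reads shared by similar genes by estimate. The annotation release and the strandedness are not given in the sources used here. Identifiers were named with GENCODE M39 (54749 found). Ahsp, on the red cell list, had no row.

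Expected counts were rounded and analysed with edgeR 4.0.16 in R 4.3.3, with TMM, filterByExpr by genotype, robust dispersions and quasi-likelihood tests, two-sided, for each organ with its 3 genotypes, and over both organs for contrasts between them. DESeq2 1.42.0 was an alternative. The SE is the absolute log2 fold change divided by the square root of the F statistic. Log2 CPM used a prior count of 2. Shares and ratios were tested by exact permutation with scipy, from the expected counts. The smallest p was 0.2 for 3 against 2 libraries. Libraries were grouped by title. The fit was tested on simulated data. The alternatives are those of the closing section. No 2 replicates agreed within sampling noise. Nothing says that replicates of a group came from separate litters, so p-values measure the spread between these libraries. The members and lists were chosen with earlier results of these data known. The genes named are the 8 members, up to 3 called genes per list, comparison and direction with the largest change, and the 10 genes most alike in pattern. Klf1, Gata1, Elane, Ddx4, Dazl, Bglap and Bglap2 were named beside these for their known roles.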

Additional observations from a re-analysis of the deposited data

Results flagged for a closer look

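Hbb-bt in Ocn-/- against WT lay on opposite sides in the organs: every Ocn-/- testes library lay below the WT mean, with a log2 fold change of -1.18, and every Ocn-/- forebrain library lay above it, with 0.38. Neither change passed the threshold. This difference was not tested for Ocn-/- alone. For both mutant genotypes together the difference between organs was -1.13 (edgeR, adjusted p = 0.415).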

How the results depend on the processing

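With 2 or 3 libraries in a group, 4 genes near copies of each other and Slc4a1 at 2 to 34 counts, the precision of single genes is limited, in testes by the spread between libraries and for Slc4a1 by depth. The falls of Hba-a1 and Hba-a2 in Ocn+/- forebrain held under every alternative. With the replicate number as a block, 3 genes were called in Ocn+/- testes, 5 in Ocn-/- testes, 2 in Ocn-/- forebrain and 1 (Alas2) for the difference between organs, where Slc4a1 turned to -0.12. Nothing in the labels pairs the numbers. Same-numbered libraries deviated together in 0 of 7 pairs of testes and 2 of 9 of forebrains (correlation over 0.1), and those of unlike number in 1 of 14 and 1 of 18. Of the libraries, 2 of 8 testes and 5 of 9 forebrains correlated best with a library of their own number. The 2 WT testes deviate from their mean in opposite ways, so the check is weak in testes. Without a filter on low counts, 1 gene was called in Ocn-/- testes, 2 in Ocn-/- forebrain, 4 between the mutant forebrains and 1 for the difference between organs. In Ocn-/- forebrain 0 were called with at least 10 counts in every library or with only the genotypes compared. Between the mutant forebrains 1 was called with library size alone and 1 with DESeq2. Hbb-bs in Ocn-/- forebrain turned to 0.048 with library size alone. The counts of calls in this section are given without the share of all genes called under the same setting, so they do not show that these genes stand out. The causes were not tested.

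Leaving out single libraries gave 0 to 1 calls in Ocn-/- testes, in Ocn-/- forebrain, between the mutant forebrains and for the difference between organs. The beta to alpha ratio of both mutants less WT in forebrain then ran from 0.182 to 0.262. Between Ocn-/- and Ocn+/- testes the log2 fold changes ran from -0.87 to 0.29 for Hba-a1, -0.90 to 0.27 for Hba-a2, -0.56 to 0.57 for Hbb-bs, -0.54 to 0.57 for Hbb-bt and -0.38 to 0.43 for Alas2, positive without Ocn+/- replicate 1 and, for Hbb-bs, also without Ocn-/- replicate 2 or 3 (0.015 and 0.020). Hbb-bs in Ocn-/- forebrain ran from -0.17 to 0.066. For the difference between organs Hba-a1 ran from -1.21 to 0.22, Hba-a2 from -1.20 to 0.24, Hbb-bs from -1.61 to -0.25, Hbb-bt from -1.66 to -0.30, Alas2 from -1.70 to -0.44 and Slc4a1 from -0.52 to 0.83, negative without WT forebrain replicate 3.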
